A study of Mus musculus with 18 samples.

Results

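Hematopoietic stem and progenitor cells hold on to their niches, and find new ones, through a small set of surface adhesion receptors. The 9 genes described here encode 7 integrin chains (Itga4, Itga5, Itga6, Itgal, Itgb1, Itgb2 and Itgb7), the P-selectin ligand Selplg and the hyaluronan receptor Cd44. They were chosen by symbol, as the probe sets that carry 1 of these symbols, and each of the 9 had 1 probe set among the 19505 genes analysed. Messenger RNA was measured in mouse cells sorted into stem cells with long-term (LT-HSC) and with short-term repopulating activity (ST-HSC), and into multipotent progenitors (MPP). The sort used the lineage-negative, Sca-1-positive, Kit-positive (LSK) gate with Cd150 and Cd48. The cells came from adult bone marrow (BM) of C57Bl/6J mice aged between 3 and 12 months, or from fetal liver (FL) of C57Bl/6J embryos at E13.5. Each of the 6 groups had 3 Affymetrix Clariom S arrays, lettered a, b and c, which makes 18 in all.

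The sample descriptions do not match this design in every respect. They speak of transplanted mice and of transduced cells, whereas the titles and the design speak of freshly isolated cells. All 9 BM arrays and 5 of the FL arrays are described with sgLuc, a guide against luciferase. The other 4 FL arrays (MPP a and b, ST-HSC a and LT-HSC a) are described with sgEzh2, and all 9 FL descriptions also name a construct written as BRSST sgRNA. Nothing in the labels ties an array to an animal or pool, so the p-values cover the spread among the samples of a group, which may be technical.

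An integrin is a pair of 1 alpha and 1 beta chain, and its ligand depends on the pair. Itga4 with Itgb1 forms VLA-4, which binds Vcam1 and fibronectin and holds stem cells in the marrow, and Itga4 with Itgb7 forms the receptor for Madcam1. Itga5 with Itgb1 is the classical fibronectin receptor, Itga6 with Itgb1 binds laminin, and Itgal with Itgb2 forms LFA-1, which binds Icam1. Selplg, once decorated with fucose and sialic acid, lets cells roll on P-selectin and E-selectin, and Cd44 binds hyaluronan and, when glycosylated in the right way, E-selectin. Progenitors of the fetal liver leave it to seed the marrow, and both tissues use these receptors.

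The proximal promoters of Itga4 and Itgb7 are shown because these 2 genes encode the chains of a single integrin and differed in opposite directions between BM and FL. Each line holds the 250 bases before the transcription start listed by RefSeq (build GRCm38.p6), 5′ to 3′ on the gene's own strand. Itga4 lies on the plus strand at chr2:79255176-79255425, and Itgb7 on the minus strand at chr15:102231936-102232185. Capitals mark matches, on either strand, to any of 4 motifs searched.
Itga4: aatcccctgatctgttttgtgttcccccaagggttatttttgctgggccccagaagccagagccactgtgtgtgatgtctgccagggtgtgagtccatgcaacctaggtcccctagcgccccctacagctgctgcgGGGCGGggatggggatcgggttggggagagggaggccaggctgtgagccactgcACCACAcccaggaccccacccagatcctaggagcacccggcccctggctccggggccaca
Itgb7: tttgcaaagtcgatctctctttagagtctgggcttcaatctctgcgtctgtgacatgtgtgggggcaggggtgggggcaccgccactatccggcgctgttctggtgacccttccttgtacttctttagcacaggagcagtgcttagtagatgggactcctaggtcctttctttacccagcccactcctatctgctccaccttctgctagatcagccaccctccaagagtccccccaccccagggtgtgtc
The motif of RUNX factors was searched as TGTGGT, which 14.0% of 32851 RefSeq windows of the same length held. The Itga4 window held its reverse complement, ACCACA, beginning 60 bases before the start. The motif of Sp1 was searched as GGGCGG, which 32.7% of the windows held, and the Itga4 window held it beginning 114 bases before the start. The motif of GATA factors was searched as AGATAA (9.99% of the windows), and that of PU.1 as GAGGAA (23.3% of the windows). The Itgb7 window held none of the 4 motifs, and the listed start lies inside the span that RefSeq gives this gene. The table of promoters held 5 of the 9 genes.

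Values are log2 signals as the authors deposited them, and the medians of the 18 arrays lay between 7.68 and 7.78. Group means of the sort markers Slamf1 (Cd150) and Cd48 followed the gate, while Ly6a (Sca-1) was not measured. Slamf1 averaged 9.66, 8.04 and 7.25 in BM LT-HSC, ST-HSC and MPP, and 9.31, 7.49 and 6.71 in the FL populations in the same order. Cd48 averaged 12.26 in BM MPP and 12.35 in FL MPP, and between 9.79 and 10.32 in the other 4 groups. Its BM LT-HSC arrays were spread from 9.58 to 11.40. Markers of some other cell types moved with the source of the cells. The mean of 10 neutrophil markers was 10.01 to 12.68 on the BM arrays and 6.17 to 7.22 on the FL arrays, with no overlap. Of these markers, 10 of 10 were called higher in BM. The means of the B cell markers (8.19 to 9.79 in BM and 7.35 to 8.17 in FL, 6 of 8 called higher in BM) and of the macrophage markers (6.85 to 8.15 in BM and 6.35 to 6.67 in FL, 6 of 10 called higher) did not overlap either. The hepatocyte means were 6.81 to 7.07 in BM and 7.03 to 9.08 in FL, with 5 of 9 markers called lower in BM. Means of the erythroid, megakaryocyte and platelet, T and NK cell, endothelial and stromal markers overlapped between BM and FL. Of the erythroid markers, 0 of 7 were called. Of the megakaryocyte and platelet markers, 3 of 8 were called higher in BM, Itga2b and Itgb3 among them. Array BM LT-HSC c stood apart with a neutrophil mean of 12.68, against 10.01 to 11.32 on the other 8 BM arrays. Its means of the macrophage, B cell, T and NK cell, megakaryocyte and platelet, erythroid, hepatocyte and stromal markers were also above those of the other 8 BM arrays. Results of the 9 receptor genes that rest on this array are given with and without it. Those of the related lists are given only with it. The Y-linked Kdm5d averaged 4.55 ± 0.24 in BM and 7.50 ± 0.46 in FL (SD, n = 9 each), so the sex makeup of the sources differed and cannot be told apart from age and tissue. In sorted bulk cells, fewer cells of a type and less RNA per cell cannot be told apart.

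Differences are given as BM minus FL in log2, with standard errors (SE), from limma on all 18 arrays, and p-values were adjusted by Benjamini-Hochberg over 19505 genes. A gene is called higher or lower at an adjusted p under 0.05. On the average over the 3 populations, 4 of the 9 receptor genes were called, 2 higher in BM (Itgb7 and Selplg) and 2 lower in BM (Itga4 and Itgal), while 25.1% of all genes were called (9.26% higher, 15.9% lower). The median difference of the 9 on this average was -0.01, equal to that of all genes. By population it was -0.02 in LT-HSC, -0.38 in ST-HSC and -0.14 in MPP, against -0.04, 0.005 and -0.04 for all genes. In LT-HSC 3 genes were called, Itgb2 and Itgb7 higher and Itga4 lower in BM, against 7.66% of all genes. In ST-HSC 3 were called, Itgb7 higher and Itga4 and Itgal lower, against 18.7% of all genes. In MPP only Itgb7 was called, higher in BM, against 5.47% of all genes.

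**Figure D1:**
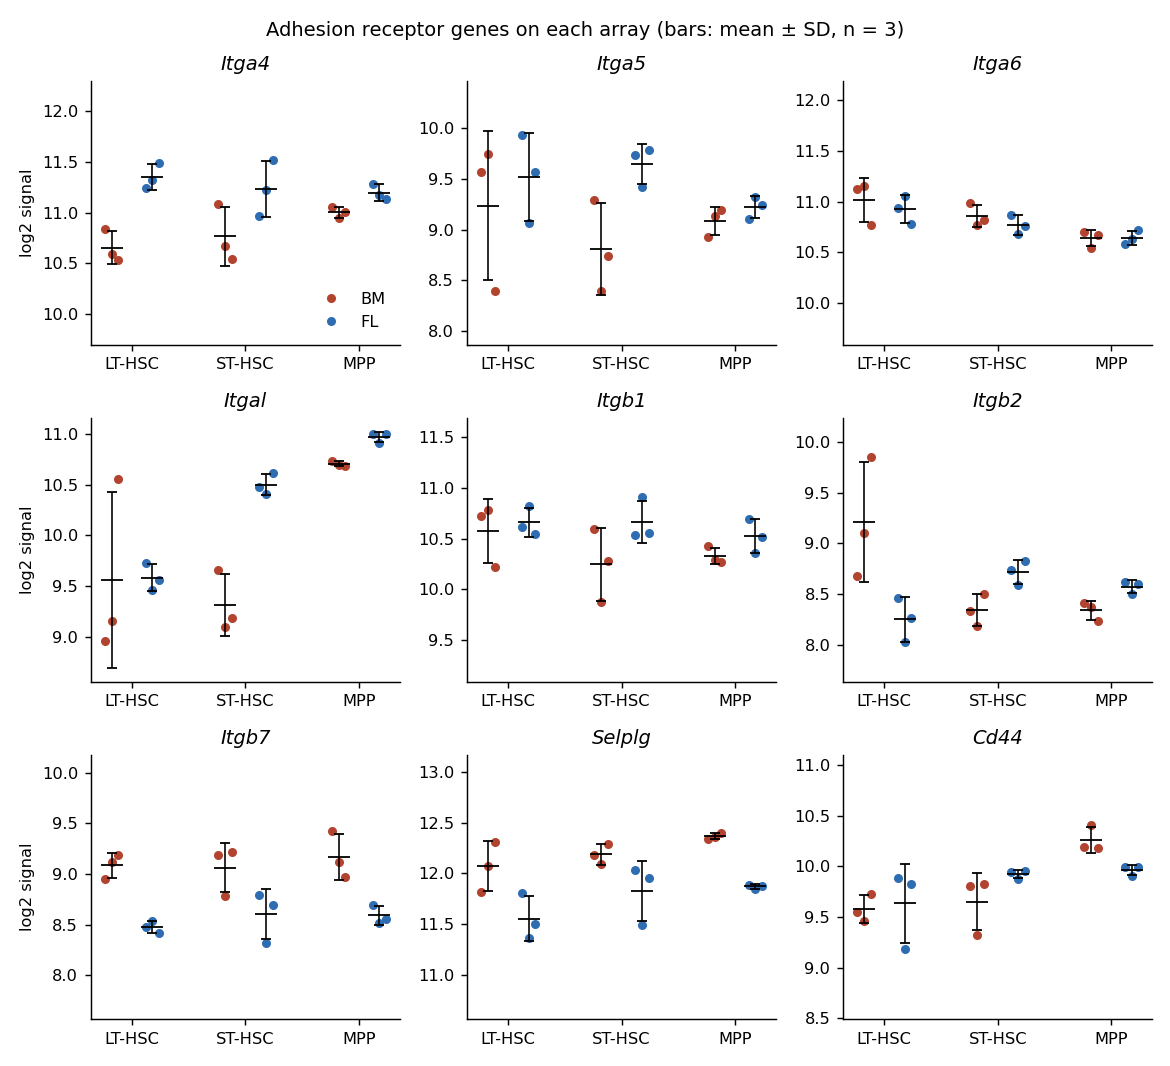
Log2 signal of the 9 adhesion receptor genes (1 panel each, all spanning the same range of log2 units) in LT-HSC, ST-HSC and MPP, with BM in red left of FL in blue, each point 1 array, and bars the mean ± SD of 3 arrays. Selplg lies higher on the BM arrays in every population, and BM LT-HSC c lies apart at 9.85 for Itgb2 and 10.56 for Itgal.

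Itga4, the alpha chain shared by VLA-4 and the Madcam1 receptor, was lower in adult BM cells. In LT-HSC its log2 signal was 10.84, 10.59 and 10.53 on the BM arrays, against 11.24, 11.32 and 11.49 on the FL arrays. All 3 BM arrays lay below all 3 FL arrays. In ST-HSC it was 11.09, 10.67 and 10.54 in BM, against 10.96, 11.22 and 11.52 in FL. Here the groups overlapped, since BM ST-HSC a lay above FL ST-HSC a. In MPP it was 11.06, 10.95 and 11.004 in BM, against 11.29, 11.18 and 11.13 in FL, which is a narrow gap with no overlap. Over the populations the difference was -0.45 ± 0.09 (1.37-fold lower in BM, limma adjusted p = 0.00108). It was -0.70 ± 0.16 in LT-HSC (1.62-fold lower, limma adjusted p = 0.00841), -0.47 ± 0.16 in ST-HSC (limma adjusted p = 0.0443) and -0.19 ± 0.16 in MPP, which was not called (limma adjusted p = 0.648). The interaction, MPP minus LT-HSC in BM less the same in FL, was 0.50 ± 0.22 and was not called (limma adjusted p = 0.653), so the populations were not shown to differ in this respect. The ST-HSC call was lost in 10 of the 18 fits that left out 1 array, 4 of them ST-HSC arrays (BM b, BM c, FL b and FL c, with limma adjusted p = 0.156, 0.205, 0.105 and 0.178) and 6 of them MPP arrays (limma adjusted p = 0.0537 to 0.057).

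Itgb7, the beta chain that pairs with Itga4 in the Madcam1 receptor, went the other way and was higher in BM in each population. In LT-HSC it was 8.95, 9.11 and 9.18 in BM, against 8.48, 8.54 and 8.41 in FL. In ST-HSC it was 9.18, 8.78 and 9.22 in BM, against 8.79, 8.32 and 8.70 in FL. In MPP it was 9.42, 9.12 and 8.97 in BM, against 8.70, 8.52 and 8.56 in FL. The arrays separated in LT-HSC and MPP, and in ST-HSC the lowest BM array lay just under the highest FL array. The average difference was 0.55 ± 0.09 (1.46-fold higher in BM, limma adjusted p = 0.000168), from 0.61 ± 0.15 in LT-HSC (limma adjusted p = 0.0182), 0.46 ± 0.15 in ST-HSC (limma adjusted p = 0.0451) and 0.58 ± 0.15 in MPP (limma adjusted p = 0.0312). No difference along the hierarchy was called: MPP minus LT-HSC was 0.09 ± 0.15 in BM (95% interval -0.24 to 0.41) and 0.11 ± 0.15 in FL (95% interval -0.21 to 0.44). The average was called in each of the 18 fits without 1 array (0.50 to 0.59), but the call in LT-HSC was lost without FL LT-HSC a or c (limma adjusted p = 0.0593 and 0.0649), and that in MPP without any of 5 MPP arrays (all but BM c, limma adjusted p = 0.0594 to 0.174). The ST-HSC call was lost in 10 of 18 such fits (limma adjusted p = 0.0519 to 0.205): without BM MPP b, BM ST-HSC a or c, FL LT-HSC a or c, any FL MPP array, or FL ST-HSC b or c.

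Selplg, the mucin-like protein that selectins bind, was higher in BM than in FL. In LT-HSC it was 11.82, 12.08 and 12.31 in BM, against 11.80, 11.36 and 11.50 in FL. In ST-HSC it was 12.18, 12.09 and 12.29 in BM, against 12.03, 11.49 and 11.96 in FL. In MPP it was 12.34, 12.36 and 12.40 in BM, against 11.89, 11.85 and 11.88 in FL. Every BM array lay above every FL array of the same population, by a hair in LT-HSC and by a clear gap in MPP. Selplg was the only one of the 9 genes to separate in this way in all 3 populations, as did 7.37% of all genes. In LT-HSC alone, 4 of the 9 genes had no overlap between BM and FL arrays, against 19% of all genes. In ST-HSC it was 5 of 9, against 34.8%, and in MPP 6 of 9, against 32.9%. The average difference was 0.46 ± 0.09 (1.37-fold higher in BM, limma adjusted p = 0.000992). The single populations did not pass, with 0.51 ± 0.16 in LT-HSC (limma adjusted p = 0.0522), 0.36 ± 0.16 in ST-HSC (limma adjusted p = 0.11) and 0.49 ± 0.16 in MPP (limma adjusted p = 0.08). Without BM LT-HSC c the average was 0.42 (limma adjusted p = 0.00147) and the difference in MPP passed (limma adjusted p = 0.0413), as it did without FL ST-HSC b (limma adjusted p = 0.0414). The difference in LT-HSC passed without BM LT-HSC a, FL LT-HSC a or FL ST-HSC b (limma adjusted p = 0.0245 to 0.0333). Neutrophils carry Selplg, and their markers were higher on all BM arrays. Within BM the MPP arrays had the lowest neutrophil means (10.51, 10.01 and 10.01) and the highest Selplg. With the neutrophil mean as a covariate, which separates BM from FL, the average difference of Selplg was -0.067 (limma adjusted p = 0.961). The part of other cells' RNA in the difference between BM and FL was not tested.

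**Figure D2:**
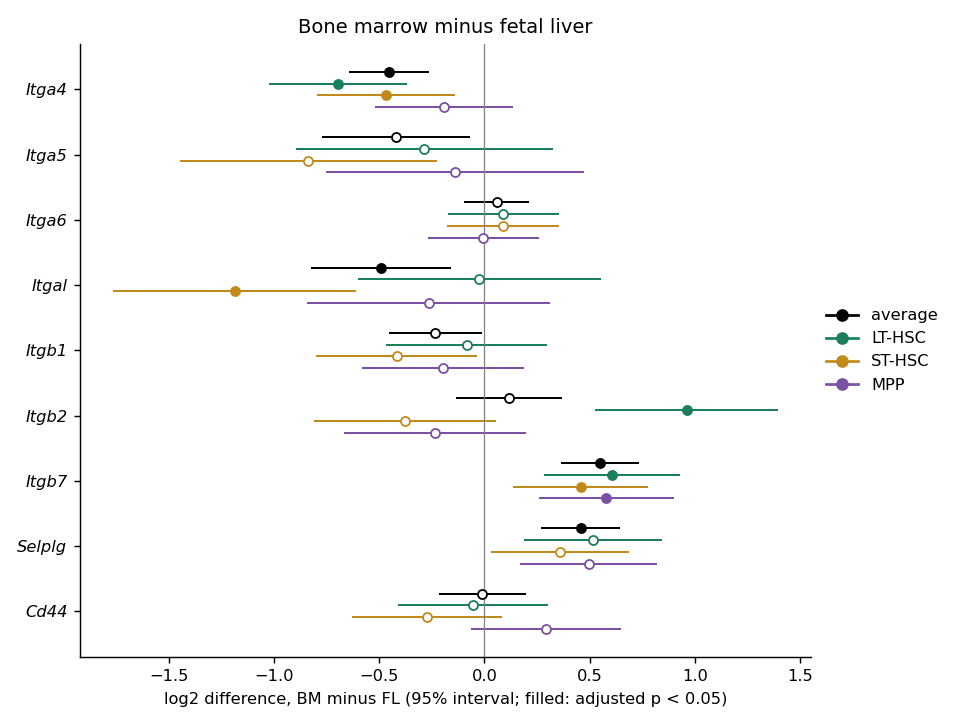
BM minus FL in log2 for each adhesion receptor gene, as the average over populations and in LT-HSC, ST-HSC and MPP, with 95% intervals of the limma fit and filled points where the adjusted p was under 0.05. Itgb7 is filled in all 4 comparisons, and Itgb2 lies at 0.96 in LT-HSC but below 0 in ST-HSC and MPP.

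Itgal, the alpha chain of LFA-1, was higher in MPP than in LT-HSC in both tissues and was lower in BM than in FL in ST-HSC. In BM it was 8.96, 9.16 and 10.56 in LT-HSC, 9.66, 9.09 and 9.19 in ST-HSC and 10.73, 10.70 and 10.69 in MPP. In FL it was 9.73, 9.46 and 9.56 in LT-HSC, 10.48, 10.41 and 10.61 in ST-HSC and 11.01, 10.91 and 10.999 in MPP. The MPP arrays were the highest of each tissue and did not overlap the others. FL ST-HSC lay between the other FL populations, whereas BM ST-HSC lay with BM LT-HSC a and b. MPP minus LT-HSC was 1.15 ± 0.27 in BM (2.21-fold higher in MPP, limma adjusted p = 0.0209) and 1.39 ± 0.27 in FL (2.62-fold higher, limma adjusted p = 0.0058). MPP minus ST-HSC was 1.39 ± 0.27 in BM (limma adjusted p = 0.00637) and 0.47 ± 0.27 in FL (limma adjusted p = 0.5). ST-HSC minus LT-HSC was -0.25 ± 0.27 in BM and 0.92 ± 0.27 in FL, neither called (limma adjusted p = 0.784 and 0.235).

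Between the tissues, Itgal was lower in BM ST-HSC than in FL ST-HSC by a clear gap, with a difference of -1.19 ± 0.27 (2.28-fold lower in BM, limma adjusted p = 0.0072). The average over populations was -0.49 ± 0.16 (limma adjusted p = 0.0288), with -0.02 ± 0.27 in LT-HSC and -0.27 ± 0.27 in MPP, neither called. BM LT-HSC c, at 10.56, lay more than 1 log2 unit above the other BM LT-HSC arrays. Without it, BM minus FL in LT-HSC was -0.52 ± 0.15 (limma adjusted p = 0.038), the average was -0.66 ± 0.08 (limma adjusted p = 7.89e-06), and MPP minus LT-HSC in BM was 1.65 ± 0.15 (3.13-fold higher, limma adjusted p = 1.07e-06). ST-HSC minus LT-HSC in FL then passed as well (0.92, limma adjusted p = 0.000964), and the interaction F test of Itgal gave a limma adjusted p of 0.0269, against 0.296 with all arrays. The call of MPP minus LT-HSC in BM was lost without BM LT-HSC a or b, or without any BM MPP array (0.85 to 1.16, limma adjusted p = 0.0659 to 0.0993). The average was lost without BM LT-HSC a or b, BM ST-HSC b or c, FL LT-HSC a or FL ST-HSC c (limma adjusted p = 0.0528 to 0.0617).

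Itgb2, the beta chain of LFA-1 and of the Itgam and Itgax integrins of myeloid cells, had its highest group mean in adult LT-HSC. It was 8.68, 9.10 and 9.85 in BM LT-HSC, against 8.46, 8.02 and 8.27 in FL LT-HSC. All 3 BM arrays lay above the FL arrays. In ST-HSC it was 8.33, 8.19 and 8.50 in BM, against 8.73, 8.59 and 8.83 in FL, and in MPP 8.41, 8.37 and 8.23 in BM, against 8.62, 8.50 and 8.60 in FL. In these 2 populations the BM arrays lay below the FL arrays, again without overlap. BM minus FL was 0.96 ± 0.21 in LT-HSC (1.95-fold higher in BM, limma adjusted p = 0.00606), -0.38 ± 0.21 in ST-HSC and -0.23 ± 0.21 in MPP (limma adjusted p = 0.2 and 0.687, neither called).

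Within BM, Itgb2 fell by 0.87 ± 0.21 in MPP relative to LT-HSC (limma adjusted p = 0.0193) and by the same amount in ST-HSC relative to LT-HSC (limma adjusted p = 0.0392). In FL the same differences were 0.32 ± 0.21 and 0.47 ± 0.21, neither called (limma adjusted p = 0.544 and 0.531). The F test of the interaction of source and population was called for Itgb2 alone among the 9 genes (F = 12.73, limma adjusted p = 0.0481), while 0.82% of all genes were called. The single interaction contrasts were -1.20 ± 0.29 for MPP minus LT-HSC (limma adjusted p = 0.0835) and -1.34 ± 0.29 for ST-HSC minus LT-HSC (limma adjusted p = 0.0535); no receptor gene was called by either, against 0.543% and 0.379% of all genes. At an unadjusted p under 0.05, 2 and 2 of the 9 passed them. The share of all genes at that looser threshold is not given, so these counts cannot be set against the shares above. BM LT-HSC c was again the highest array, and its neutrophil marker mean was the highest of all. Without it Itgb2 was still higher in BM LT-HSC, by 0.64 ± 0.16 (1.56-fold, limma adjusted p = 0.0127). MPP minus LT-HSC in BM was then -0.55 ± 0.16 (limma adjusted p = 0.0426), ST-HSC minus LT-HSC in BM missed the threshold (limma adjusted p = 0.0532), and the interaction F test gave a limma adjusted p of 0.0201. The interaction F test was called in 3 of the 18 fits without 1 array, those without BM LT-HSC a, BM LT-HSC c or BM ST-HSC a (limma adjusted p over the 18 fits = 0.00459 to 0.125). MPP minus LT-HSC in BM was also lost without any BM MPP array (-0.91 to -0.82, limma adjusted p = 0.0504 to 0.0842), and ST-HSC minus LT-HSC in BM was called in 4 of 18 such fits, those without BM LT-HSC a, FL LT-HSC a, FL LT-HSC b or FL ST-HSC b (highest limma adjusted p = 0.159). Both interaction contrasts passed without BM LT-HSC a (-1.46 and -1.60, limma adjusted p = 0.00765 and 0.00446) and without BM LT-HSC c (-0.88 and -1.02, limma adjusted p = 0.0479 and 0.0185), and that of ST-HSC also without BM ST-HSC a (limma adjusted p = 0.0454). With the neutrophil covariate, BM minus FL of Itgb2 in LT-HSC was -1.05 (limma adjusted p = 0.427). The part of other cells' RNA in these differences was not tested.

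**Figure D3:**
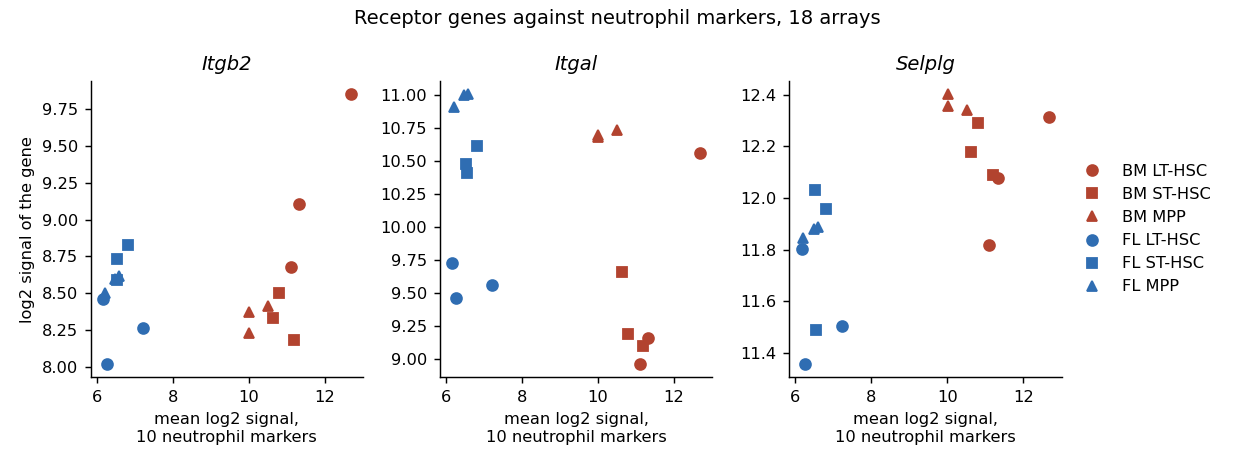
Log2 signal of Itgb2, Itgal and Selplg on each of the 18 arrays (vertical axes) against the mean log2 signal of 10 neutrophil markers (horizontal axes), BM in red and FL in blue, with a symbol for each population. BM LT-HSC c lies at a neutrophil mean of 12.68, and the 3 BM MPP arrays have the lowest neutrophil means of BM and the highest Selplg.

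Itga5, Itgb1 and Itga6, chains of the fibronectin and laminin receptors, showed no called difference between BM and FL. Itga5, the alpha chain of the fibronectin receptor, was 9.29, 8.40 and 8.74 in BM ST-HSC, against 9.73, 9.42 and 9.78 in FL ST-HSC. The BM arrays lay below the FL arrays, and the difference of -0.84 ± 0.29 just missed the threshold (limma adjusted p = 0.053). On average it was -0.42 ± 0.17 (95% interval -0.77 to -0.07, limma adjusted p = 0.0777). Array BM LT-HSC c, at 8.39, lay below BM LT-HSC a and b at 9.57 and 9.75, and without it BM minus FL of Itga5 in ST-HSC passed (-0.84, limma adjusted p = 0.00809), as did ST-HSC minus LT-HSC in BM (-0.85, limma adjusted p = 0.0498). ST-HSC also passed without BM LT-HSC b, BM ST-HSC a, FL LT-HSC a or FL LT-HSC b (limma adjusted p = 0.0146 to 0.0494), and the average passed without BM LT-HSC b, BM ST-HSC a or FL LT-HSC b (limma adjusted p = 0.0282 to 0.0346).

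Itgb1, the beta chain shared by VLA-4 and the fibronectin and laminin receptors, averaged 10.58 ± 0.31, 10.25 ± 0.36 and 10.33 ± 0.08 in BM LT-HSC, ST-HSC and MPP, against 10.66 ± 0.14, 10.66 ± 0.21 and 10.53 ± 0.17 in FL (SD, n = 3). Its arrays ranged from 9.87 to 10.79 in BM and from 10.36 to 10.91 in FL, and the ranges overlapped widely. The average difference was -0.23 ± 0.11 (95% interval -0.45 to -0.01, limma adjusted p = 0.121). It passed only without BM ST-HSC a (-0.29, limma adjusted p = 0.0344), as did the difference in ST-HSC (-0.59, limma adjusted p = 0.0235).

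Itga6, the laminin-binding chain, had the smallest average difference between the tissues of the 7 integrin chains. Its arrays ran from 10.55 to 11.16 in BM and from 10.58 to 11.06 in FL. The average difference was 0.06 ± 0.07 (95% interval -0.10 to 0.21, limma adjusted p = 0.62). It averaged 11.01, 10.86 and 10.64 in BM LT-HSC, ST-HSC and MPP, and 10.93, 10.77 and 10.64 in the FL populations in the same order. MPP minus LT-HSC was -0.38 ± 0.13 in BM and -0.28 ± 0.13 in FL, neither called (limma adjusted p = 0.11 and 0.31). Without BM LT-HSC c the difference in BM was -0.50 ± 0.12 and passed (limma adjusted p = 0.0187).

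Cd44, the hyaluronan receptor, showed no called difference between the tissues on average (-0.01 ± 0.10, 95% interval -0.22 to 0.20, limma adjusted p = 0.951), but was higher in BM MPP than in the BM stem cells. In BM it was 9.55, 9.46 and 9.73 in LT-HSC, 9.81, 9.33 and 9.83 in ST-HSC and 10.19, 10.41 and 10.18 in MPP. The BM MPP arrays lay above all other arrays of the series. In FL it was 9.89, 9.18 and 9.83 in LT-HSC, 9.94, 9.88 and 9.96 in ST-HSC and 10.00, 9.91 and 9.99 in MPP. FL MPP overlapped FL ST-HSC and lay above FL LT-HSC. MPP minus LT-HSC was 0.68 ± 0.17 in BM (1.6-fold higher in MPP, limma adjusted p = 0.0275) and 0.33 ± 0.17 in FL (limma adjusted p = 0.405). MPP minus ST-HSC in BM was 0.61 ± 0.17 (limma adjusted p = 0.0427). The difference of MPP minus LT-HSC between the tissues was 0.35 ± 0.24 (95% interval -0.16 to 0.85) and was not called. The first BM call was lost without BM LT-HSC a or b or any BM MPP array (0.60 to 0.72, limma adjusted p = 0.0635 to 0.141), and the second in 10 of 18 fits without 1 array (0.44 to 0.69, limma adjusted p = 0.0544 to 0.238): without any BM or FL MPP array, BM ST-HSC b or c, or FL ST-HSC a or c.

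Along the hierarchy, 3 of the 9 genes were called for MPP minus LT-HSC in BM, Itgal and Cd44 higher and Itgb2 lower in MPP, while 4.57% of all genes were called. For MPP minus ST-HSC in BM, Itgal and Cd44 were called higher in MPP, against 6.1% of all genes. For ST-HSC minus LT-HSC in BM, Itgb2 alone was called, lower in ST-HSC, against 1.71%. In FL, Itgal was the only gene called for MPP minus LT-HSC, against 3.4% of all genes. None of the 9 was called in FL by limma for ST-HSC minus LT-HSC or MPP minus ST-HSC, against 0.559% and 2.26% of all genes. At an unadjusted p under 0.05, 2 and 0 of the 9 passed these, and the share of all genes at that threshold is not given.

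**Figure D4:**
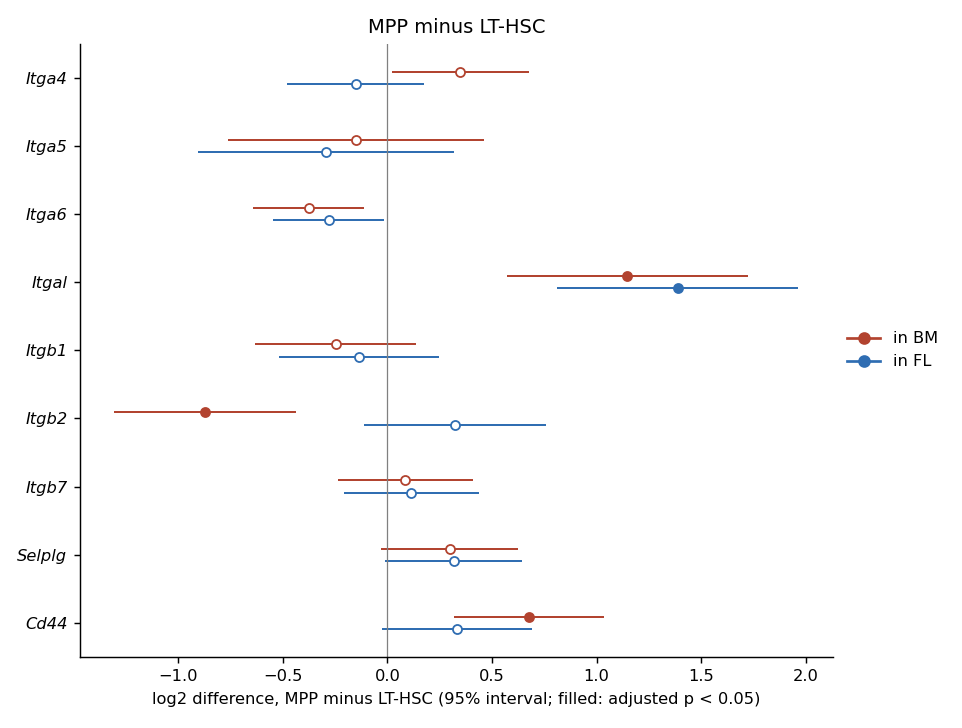
MPP minus LT-HSC in log2 for each adhesion receptor gene, in BM (red) and in FL (blue), with 95% intervals of the limma fit and filled points where the adjusted p was under 0.05. Itgal lies at 1.15 in BM and 1.39 in FL, whereas Itgb2 lies at -0.87 in BM and 0.32 in FL.

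By mean level, Itga5 and Itgb1 shared 1 order of the 6 groups, and the other genes each had their own. For Itga4 the order was FL LT-HSC, FL ST-HSC, FL MPP, BM MPP, BM ST-HSC and BM LT-HSC, and only FL MPP and BM MPP did not overlap as neighbours. For Itgb7 the 3 BM groups ranked above the 3 FL groups, from BM MPP (9.17 ± 0.23) to FL LT-HSC (8.48 ± 0.06), and all neighbours overlapped. For Selplg the BM groups also ranked above the FL groups, from BM MPP (12.37 ± 0.03) to FL LT-HSC (11.55 ± 0.23), and BM MPP alone stood clear of its neighbour. Itgal had the widest spread of group means, 1.66 log2 units, from FL MPP (10.97 ± 0.05) to BM ST-HSC (9.31 ± 0.30). Its upper 4 groups, FL MPP, BM MPP, FL ST-HSC and FL LT-HSC, did not overlap one another as neighbours. For Cd44, BM MPP stood clear of FL MPP and FL ST-HSC of BM ST-HSC. For Itgb2, Itga5, Itgb1 and Itga6 all neighbouring groups overlapped.

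Some of the receptor genes varied together over the 18 arrays, which share the 6 groups and so are not independent. Itgb7 and Selplg had a Pearson r of 0.85 over all arrays and 0.56 after the group means were removed. Itgal and Cd44 had 0.73 over all arrays and 0.42 within groups. Itga6 ran against both, with -0.77 for Itgal and -0.71 for Cd44 over all arrays, and -0.52 and -0.33 within groups. Itga4 and Itgb7 had -0.66 over all arrays and -0.02 within groups. The 2 chains of LFA-1, Itgal and Itgb2, had 0.17 over all arrays and 0.87 within groups. BM LT-HSC c was the highest array of its group for both.

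Among all genes, those with the most similar pattern over the 18 arrays are named as a description. Nearest to Itga4 were Sin3a (r = 0.94), Msh6 (0.91) and Nup188 (0.90). Nearest to Itgal were Otulinl (0.93), Rnpep (0.93) and Ptger2 (0.91). Nearest to Itgb2 were Serpinb10 (0.91), Slfn2 (0.86) and Lgmn (0.85). Cyth1, a cytohesin that binds the tail of Itgb2, was among the 3 nearest of both Itgb7 (0.89, after Itpr2 at 0.90 and Msra at 0.89) and Selplg (0.89, with Ms4a6b at 0.89 and Tmem219 at 0.88). The nearest to Itga5 were Cenpt (0.94), Btbd6 (0.93) and Ak3 (0.91), and those to Itga6 were Flywch2 (0.90), Plxdc2 (0.89) and Cavin3 (0.88). Itgb1 came with Nipsnap2 (0.89), Nlk (0.87) and Tmem9 (0.86), and Cd44 with Il18rap (0.86), Ldlrad4 (0.83) and Padi2 (0.83).

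Among the other integrin subunits Itga9 stood out as lower in BM. Of 17 measured, 4 were called higher and 1 lower in BM on average, with a median difference of 0.05 (9.26% of all genes were called higher and 15.9% lower). Itga9, the alpha chain of a receptor for tenascin and Vcam1, was 9.58 ± 0.24 in BM and 11.08 ± 0.21 in FL (SD, n = 9 each), which is a difference of -1.51 ± 0.10 (2.84-fold lower in BM, limma adjusted p = 4.76e-09). Itga2b, the platelet integrin chain that also marks early stem cells, was 10.19 ± 0.60 in BM and 9.18 ± 0.45 in FL (2.01-fold higher in BM, limma adjusted p = 5.24e-08). Its partner Itgb3 was 8.63 ± 0.70 in BM and 7.95 ± 0.51 in FL (0.67 ± 0.12, limma adjusted p = 0.000548). Itgad and Itgb5 were the other 2 called higher, by 0.63 ± 0.17 and 0.42 ± 0.09. Itgad lay below the array medians, at 6.57 ± 0.85, 5.83 ± 0.11 and 6.29 ± 0.21 in BM LT-HSC, ST-HSC and MPP. In FL it was 5.28 ± 0.17, 5.29 ± 0.12 and 6.23 ± 0.41 in the same order (SD, n = 3). Along the hierarchy in BM, Itgb3 and Itga2b fell by 1.53 and 1.17 in MPP relative to LT-HSC. In FL, Itga2 and Itga2b fell by 0.90 and 0.56.

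Of 15 measured genes that synthesise the selectin ligands carried by Selplg and Cd44, 3 were called higher in BM on average, none was called lower and 12 were not called, with a median difference of 0.05 (25.1% of all genes were called). In LT-HSC 3 were higher and 0 lower in BM, against 7.66% of all genes called. In ST-HSC 1 was higher and 1 lower (18.7% of all genes), and in MPP 2 were higher and 0 lower (5.47%). For MPP minus LT-HSC in BM 1 was higher and 2 lower, against 4.57% of all genes. Fut7, the fucosyltransferase that completes the sialyl Lewis x group, was 9.67 ± 0.11, 10.17 ± 0.27 and 10.92 ± 0.08 in BM LT-HSC, ST-HSC and MPP, against 9.0 ± 0.12, 9.12 ± 0.28 and 10.11 ± 0.04 in FL (SD, n = 3). It was higher in BM by 0.84 ± 0.09 on average (1.79-fold, limma adjusted p = 1.11e-06) and was called in all 3 populations. It was also higher in MPP than in LT-HSC, by 1.25 ± 0.15 in BM and 1.11 ± 0.15 in FL (limma adjusted p = 4.92e-05 and 0.000133). B3gnt2, which builds the sugar chains, was higher in BM by 0.70 ± 0.08 (limma adjusted p = 6.27e-06), and the sialyltransferase St3gal4 by 0.39 ± 0.08 (limma adjusted p = 0.00185). In MPP relative to LT-HSC, the sialyltransferase St3gal6 fell by 1.19 in BM, and the sulfotransferase Tpst1 fell by 0.69 in FL.

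Of 33 measured genes of integrin activation and adaptors, 9 were called higher and 4 lower in BM on average, with a median of 0.05. Among all genes 25.1% were called, 9.26% higher and 15.9% lower. The largest were Cytip (0.75 ± 0.08), which regulates cytohesins, Cyth1 (0.71 ± 0.10) and Fyb (0.68 ± 0.09), an adaptor of inside-out integrin activation, all higher in BM. Vinculin (Vcl), which links integrins to actin, was lower in BM on average, by -0.38 ± 0.09, but not in LT-HSC. Its means were 9.44, 8.43 and 8.45 in BM LT-HSC, ST-HSC and MPP, against 9.17, 9.17 and 9.10 in FL. In BM it fell by 0.99 in MPP relative to LT-HSC. Parvg, a parvin of blood cells, was higher in MPP than in LT-HSC, by 0.82 in BM and 0.88 in FL.

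Of 21 measured ligands, 3 were called higher and 4 lower in BM on average, with a median of 0.08 (9.26% of all genes were called higher and 15.9% lower). Lamc1, a laminin chain, was 7.28 ± 0.57 in BM and 8.44 ± 0.28 in FL (SD, n = 9 each), a difference of -1.16 ± 0.17. Fibronectin (Fn1), the ligand of Itga5 and Itga4, was lower in BM by -0.96 ± 0.19. Its level was 10.57 ± 0.87, 8.82 ± 0.17 and 8.41 ± 0.56 in BM LT-HSC, ST-HSC and MPP, against 11.08 ± 0.25, 11.15 ± 0.37 and 8.45 ± 0.15 in FL (SD, n = 3). Fn1 thus fell in MPP relative to LT-HSC by 2.16 in BM and 2.63 in FL. E-selectin (Sele) was higher in BM by 0.85 ± 0.14, at levels of 6.78 ± 0.56 in BM and 5.92 ± 0.12 in FL (SD, n = 9 each), and the extracellular matrix glycoprotein Emilin1 was lower in BM by -0.52 ± 0.09. In MPP relative to LT-HSC, P-selectin (Selp) fell by 1.60 in FL, while in BM it averaged 10.61 in MPP and 10.55 in LT-HSC. Jam2, a junctional adhesion molecule, fell by 0.93 in BM, from 7.25 to 6.31. Both Jam2 and Sele lay below the array medians.

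Of 28 other niche and homing receptors measured, 6 were called higher and 8 lower in BM on average, with a median of -0.09. Among all genes 9.26% were called higher and 15.9% lower. Alcam, an adhesion molecule of the immunoglobulin family, was 11.10 ± 0.29 in BM and 8.86 ± 0.16 in FL (SD, n = 9 each), a difference of 2.24 ± 0.09 (4.71-fold higher in BM, limma adjusted p = 2.95e-12). Cdh5, the endothelial cadherin, was lower in BM by -1.51 ± 0.12, and fell in MPP relative to LT-HSC by 2.01 in BM and 2.47 in FL. Ceacam1 was higher in BM by 0.75 ± 0.15 and the sialomucin Podxl lower by -0.72 ± 0.11. Cxcr4, the receptor for the homing chemokine Cxcl12, was higher in BM by 0.69 ± 0.09 (10.49 ± 0.37 in BM and 9.80 ± 0.22 in FL, SD, n = 9 each). In MPP relative to LT-HSC, Cd34 was higher by 1.71 in BM, and the junctional protein F11r fell by 1.41 in FL.

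**Figure D5:**
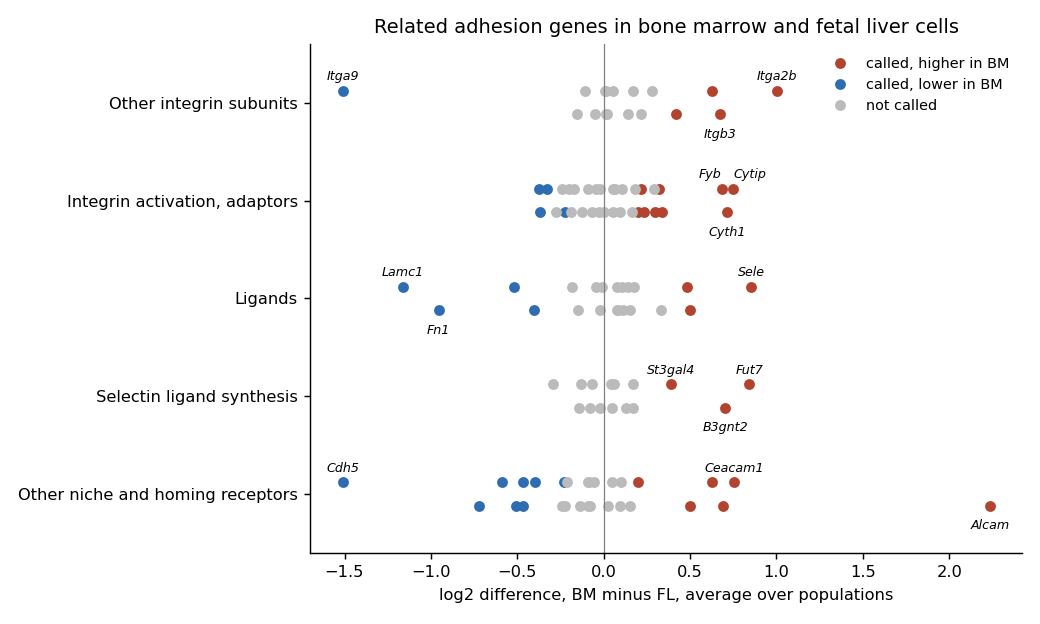
BM minus FL in log2, averaged over the 3 populations, for the measured genes of 5 lists related to adhesion, each point 1 gene, red where called higher in BM, blue where called lower and grey where not called. Alcam at 2.24, Itga9 at -1.51 and Cdh5 at -1.51 lie farthest from 0, and all 3 called genes of selectin ligand synthesis lie on the right.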

How the data were processed

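RNA of the sorted cells was hybridised to 18 Clariom S arrays, 1 per sample. The authors deposited a log2 signal for each probe set, made in R 3.5.01 with oligo, per the submitters' processing notes. How background, normalization and summarization were handled is not given in the sources used here. Of 22203 probe sets, 19572 carried 1 gene symbol and 2631 none. Where a symbol had several, the brightest on average was kept, which set aside 67 and left 19505 genes.

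The means of 6 groups of 3 arrays were fitted with limma 3.58.1 (lmFit and eBayes, R 4.3.3), with Benjamini-Hochberg adjustment over all genes and a threshold of 0.05. Errors of differences are standard errors of that fit, with a median over genes of 0.10 for the average over populations, 0.17 for a pair of groups and 0.24 for an interaction. The number of arrays limits this precision. Scripts were checked on simulated data.

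The receptor genes, the related lists and the markers were chosen with earlier results of these data known. Named besides the receptor genes are the 4 largest called differences of a list in the average, the 2 largest called in MPP minus LT-HSC in BM and in FL, and the 3 genes nearest each receptor gene by Pearson correlation. Itgb5 and Cxcr4 fall outside this rule and were named after their values were seen. Same-letter arrays did not deviate together (r of residuals from -0.46 to 0.42 within a source and from -0.38 to 0.53 between sources), so the letters were not treated as pairs. Alternatives were array weights, other scalings, leaving out each array, the narrow arrays or the sgEzh2 arrays, a filter on dim genes, a replicate block, a fit of only the groups compared, another variance model, averaged probe sets and neutrophil markers as a covariate.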

Additional observations from a re-analysis of the deposited data

Results flagged for a closer look

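Itgb2 was the only receptor gene whose difference between BM and FL differed between populations by the F test of the interaction (limma adjusted p = 0.0481). All 3 BM arrays lay above all 3 FL arrays in LT-HSC, by 0.96 ± 0.21 on average, and below them in ST-HSC and MPP, by -0.38 ± 0.21 and -0.23 ± 0.21. The call lies close to the threshold. It held in 3 of the 18 fits without 1 array, among them the fit without BM LT-HSC c, the array with the highest neutrophil marker mean (limma adjusted p = 0.0201). It was lost with median centring (limma adjusted p = 0.0624), quantile normalization (0.116), the replicate block (0.0531) and the neutrophil covariate (0.153), and without the narrow arrays (0.0755) or the sgEzh2 arrays (0.451).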

How the results depend on the processing

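The calls of Itga4, Itgb7 and Selplg for the average of BM minus FL held in 18 of 18 fits without 1 array and in 10 of 11 other alternatives, the neutrophil covariate being the exception. With the mean of the neutrophil markers as a covariate, which separates BM from FL without overlap, the number of called receptor genes in the average was 0 (4 without it), Selplg turned to -0.067 (limma adjusted p = 0.961), and Itgb2 in LT-HSC turned to -1.05 (limma adjusted p = 0.427). All genes called in the average numbered 281 with this covariate, 2538 without the sgEzh2 arrays, 7260 with array weights and 4904 in the fit reported. The narrow arrays are 4 whose interquartile range was 2.61 to 2.71, against 2.98 to 3.18 on the other 14 (FL LT-HSC b, BM ST-HSC b, BM ST-HSC c and BM LT-HSC c).

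Beyond the average, the share of all genes called in each setting is not given. Changes in the counts below therefore cannot be read as particular to the receptor genes. Counts of receptor genes called changed as follows, with 3 in LT-HSC, 3 in ST-HSC, 1 in MPP, 3 for MPP minus LT-HSC in BM, 2 for MPP minus ST-HSC in BM, 1 for ST-HSC minus LT-HSC in BM and 1 for the interaction F test as reported. In LT-HSC it was 0 with only the groups compared and 0 with the covariate. In MPP it was 2 with array weights, with only the groups compared, with trend and robust estimation and without the narrow arrays, and 0 with the covariate and without the sgEzh2 arrays. In ST-HSC it was 6 with array weights, 1 with the covariate, 1 without the narrow arrays and 0 without the sgEzh2 arrays. For MPP minus LT-HSC in BM it was 0 with only the groups compared and without the sgEzh2 arrays, and 5 without the narrow arrays. In FL it was 0 without the sgEzh2 arrays. For MPP minus ST-HSC in BM it was 4 with array weights and 1 with only the groups compared, the covariate, quantile normalization, without the narrow arrays and without the sgEzh2 arrays. In FL it was 1 with array weights, with only the groups compared and without the narrow arrays. For ST-HSC minus LT-HSC in BM it was 4 with array weights and 0 with only the groups compared, median centring, the covariate, quantile normalization, without the narrow arrays and without the sgEzh2 arrays. In FL it was 1 with array weights, with only the groups compared and without the narrow arrays. For the interaction F test it was 3 with array weights and 0 with median centring, the covariate, quantile normalization, the replicate block, without the narrow arrays and without the sgEzh2 arrays. For the interaction of MPP minus LT-HSC it was 1 with array weights. For that of ST-HSC minus LT-HSC it was 3 with array weights, 1 with the random replicate block, 1 with trend and robust estimation and 1 without the dimmest 30% of genes.

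Leaving out 1 array gave 3 to 6 called genes for the average, 2 to 4 in LT-HSC, 1 to 4 in ST-HSC and 0 to 2 in MPP. It gave 0 to 4 for MPP minus LT-HSC in BM, 1 to 2 for MPP minus ST-HSC in BM, 0 to 1 for ST-HSC minus LT-HSC in BM and in FL, 0 to 1 for each interaction contrast and 0 to 2 for the interaction F test. Leaving out the sgEzh2 arrays leaves FL MPP with 1 array, which is taken to vary like the other groups. It ended the calls of Itgal for BM minus FL in ST-HSC (limma adjusted p = 0.0564) and for MPP minus LT-HSC in FL (limma adjusted p = 0.349). The replicate block left the average at 4 called receptor genes (4858 of all genes). It ended the calls of Itga4 in ST-HSC (limma adjusted p = 0.0549) and of the Itgb2 interaction (limma adjusted p = 0.0531), and made that of Selplg in LT-HSC (limma adjusted p = 0.0475). Same-letter arrays were best partners in 11 of 36 comparisons within a source and 16 of 54 between sources. Some of these fits had fewer arrays, and the causes of the changes were not tested. Groups of 3 arrays and 1 probe set per gene limit what could be called.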
